A study of Arabidopsis thaliana with 24 samples.

Results

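Rosettes of Arabidopsis thaliana Col-0 watered with NaCl at 150 mM together with mannitol at 200 mM (the Salt_Mannitol group) were compared with rosettes watered with 200 mM mannitol alone (the Mannitol group). Each group had 3 libraries, so 6 of the 24 libraries of the series entered this comparison, and all genes were considered. Both groups grew on soil in long days, were moved to new soil at 2 weeks, were treated 14 days later, stayed at 22 °C and were harvested 16 h after watering. The 2 groups thus differ in the salt of the watering solution. Another 2 pairs of groups served to show where the change with salt on mannitol differs. In the unheated pair, the Salt group received 150 mM NaCl and the Control group received no recorded watering, so this pair also differs in watering. In the heated pair, Salt_Mannitol_Heat and Mannitol_Heat received the same solutions as the 2 main groups and spent the last 4 h at 35 °C. The labels give 3 separate biological replicates per group. Whether a replicate was a single plant or several is not in the labels, and the p-values cover only the variation among these libraries.

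Salt reaches leaf cells both as a lower water potential and as sodium and chloride ions, while mannitol is a sugar alcohol that lowers the water potential without adding ions. Plants answer water deficit largely through abscisic acid (ABA), whose signalling switches on dehydrins, late embryogenesis abundant (LEA) proteins and lipid transfer proteins. Growth needs new ribosomes, which are assembled in the nucleolus from ribosomal RNA and ribosomal proteins at a high cost to the cell.

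Totals were 16.4 to 19.0 M reads in Salt_Mannitol and 17.6 to 19.5 M in Mannitol, and 12.5 to 19.5 M over all 24 libraries. Within the 2 main groups no replicate was a copy of another, since a chi-square over genes, divided by its degrees of freedom, was 3.92 to 7.31 between Salt_Mannitol replicates and 10.2 to 25.1 between Mannitol replicates. The 2 largest values belonged to pairs with Mannitol library 3, which stood apart from the other 2 Mannitol libraries. Markers of green leaf summed to 40520 to 45030 TPM in Salt_Mannitol and 40680 to 54160 TPM in Mannitol. Markers of root summed to 84.1 to 124 TPM in Salt_Mannitol and 115 to 121 TPM in Mannitol, and those of phloem to 130 to 144 TPM in Salt_Mannitol and 124 to 130 TPM in Mannitol. Markers of guard cells summed to 19.4 to 23.3 TPM in Salt_Mannitol and 25.7 to 27.3 TPM in Mannitol. In Salt_Mannitol 2 of the 5 guard cell markers and 1 of the 3 phloem markers were called lower, and 1 of the 6 green leaf markers higher. Flower and seed markers stayed at or under 0.894 TPM in sum in every library, with 2 of 6 seed markers at 0 throughout. In whole rosettes, fewer cells of a type and less RNA per cell cannot be told apart.

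Of 20027 genes tested in edgeR's quasi-likelihood test, 2675 (13.4%) passed an adjusted p of 0.05 (Benjamini-Hochberg) and are named called here, of which 1055 (5.27%) were higher and 1620 (8.09%) lower in Salt_Mannitol than in Mannitol. The higher genes were 39.4% of the calls, and 46.1% with another scaling (RLE). Most of these changes were small. The median absolute log2 fold change of called genes was 0.45, and 205 genes changed at least 2-fold, 91 of them higher and 114 lower. The libraries of the 2 groups did not overlap in TPM for 2516 of the called genes, while over all genes tested the Salt_Mannitol libraries lay wholly above the Mannitol libraries for 16.8% and wholly below for 16.2%. Single libraries weighed on the number of calls, which was 885 without Salt_Mannitol 1, 1463 without Mannitol 1 and 1029 without Mannitol 2, but 3525 without Mannitol 3. All 2675 genes kept their sign in each of these fits, and 735 stayed called in every one.

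Genes of the protein-making machinery had the largest shares of falls among the lists (the plot of calls by gene list). Cytosolic ribosomal proteins, the structural parts of the small and large ribosomal subunits, fell for 199 of 243 tested members (8.09% of all genes tested fell), none rose, and 230 had a negative log2 fold change. Their median log2 fold change was -0.45, beside -0.01 for all genes tested, and the called members ran from -1.27 to -0.24. The 265 ribosomal protein genes summed to 51550, 56890 and 56450 TPM in the Salt_Mannitol libraries, against 74900, 79080 and 63090 TPM in the Mannitol libraries. Every Salt_Mannitol library lay below every Mannitol library, with Mannitol 3 the closest. In the other unheated pair the sums were 56420 ± 3218 TPM in Salt and 64690 ± 5260 TPM in Control (SD, n = 3 each). The number of fallen members was 102 without Salt_Mannitol 1, 148 without Mannitol 1 and 98 without Mannitol 2, and it was 209 without Mannitol 3, where 2 members were also higher. Many ribosomal proteins have near-identical copies between which reads may be split, so values of single members are less certain than the sum.

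**Figure D1:**
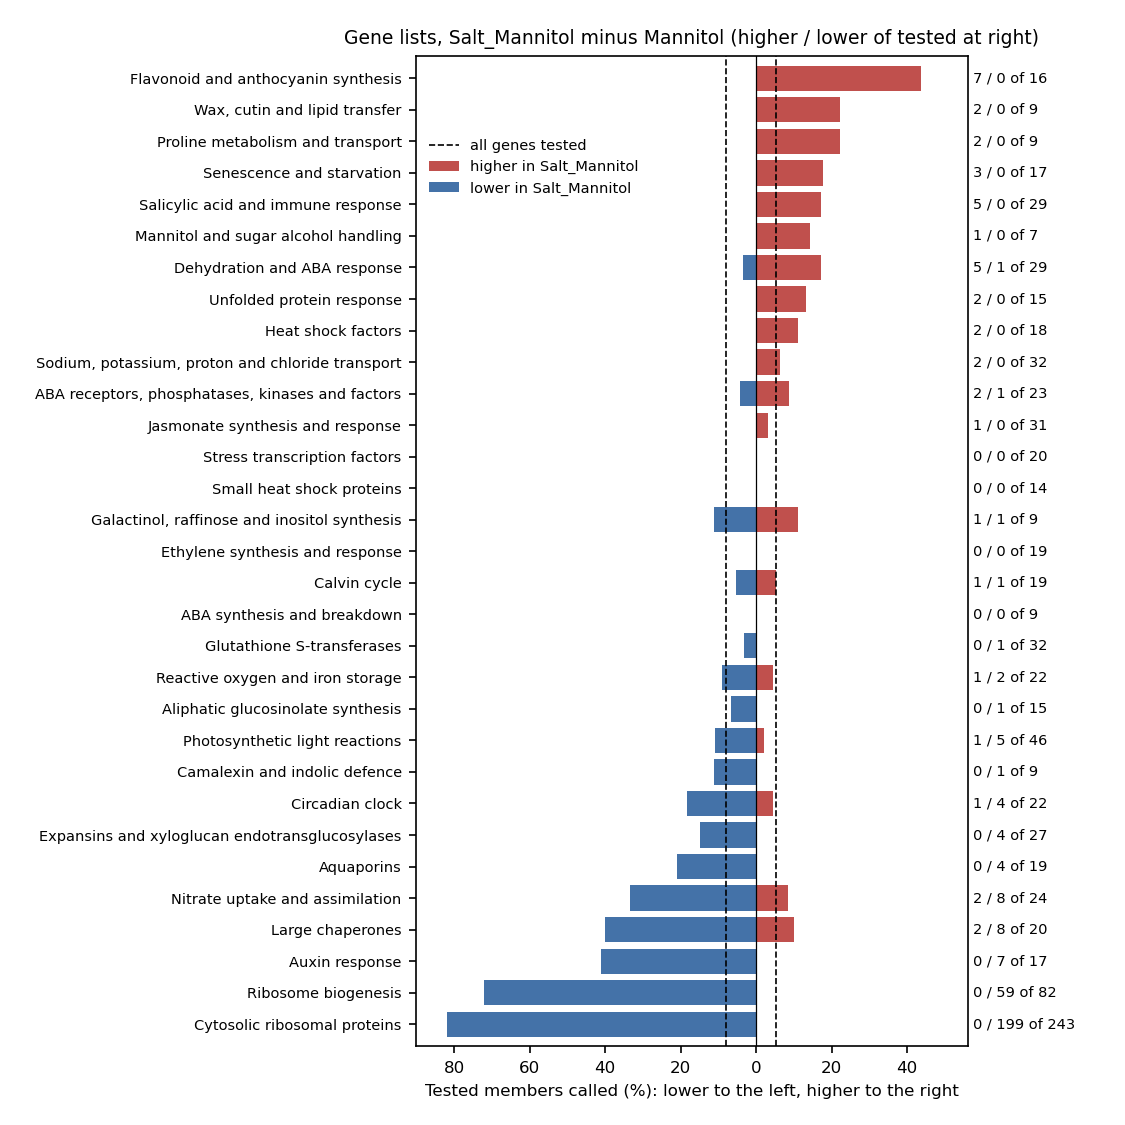
Share of tested members of each gene list called higher (bars to the right) or lower (bars to the left) in Salt_Mannitol than in Mannitol, in percent, with the counts at the right. Dashed lines mark 5.27% and 8.09% of all genes tested, and the longest bars are those of ribosomal proteins and ribosome biogenesis, all to the left.

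Among single ribosomal protein genes, AT3G11120, which codes for L41 of the large subunit, had 907, 954 and 922 TPM in Salt_Mannitol, against 1511, 1432 and 1564 TPM in Mannitol. It fell by 0.54 ± 0.081 on the log2 scale (SE; edgeR adjusted p = 0.00041). A second L41 gene, AT3G08520, averaged 1041 ± 65.6 TPM in Salt_Mannitol and 1886 ± 49.5 TPM in Mannitol (SD, n = 3 each) and fell by 0.70 ± 0.11 (edgeR adjusted p = 0.000635). AT2G20450, which codes for L14, had 72.2, 87.0 and 80.2 TPM in Salt_Mannitol, against 122, 133 and 106 TPM in Mannitol, a change of -0.62 ± 0.096 (edgeR adjusted p = 0.00052). In all 3 genes the groups were apart, and the calls held whichever of the 6 libraries was left out.

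Genes that build ribosomes moved with the ribosomal proteins. This list, 84 genes placed under ribosome biogenesis by the deposited MapMan annotation, was added after its values had been seen, and 2 of its members are also in the ribosomal protein list. Of 82 members tested, 59 fell and none rose (8.09% and 5.27% of all genes tested did), with a median log2 fold change of -0.45. Their summed level was 1397, 1494 and 1390 TPM in Salt_Mannitol, against 1791, 2068 and 1796 TPM in Mannitol, with no overlap. NUC-L1, the nucleolin needed for organised transcription of ribosomal RNA genes, had 83.9, 91.4 and 85.7 TPM in Salt_Mannitol, against 133, 161 and 142 TPM in Mannitol. Its change was -0.75 ± 0.11 (edgeR adjusted p = 0.00029). FIB1, the fibrillarin that methylates ribosomal RNA, had 74.7, 81.2 and 78.7 TPM in Salt_Mannitol, against 113, 133 and 110 TPM in Mannitol, a change of -0.62 ± 0.10 (edgeR adjusted p = 0.00065). NAP57, the pseudouridine synthase of ribosomal RNA, changed by -0.70 ± 0.11, and NSN1, a nucleolar GTPase, by -0.70 ± 0.10. SWA1, which processes ribosomal RNA precursors, changed by -0.87 ± 0.12, the largest fall of the list. Calls in the list numbered 36 without Salt_Mannitol 1 and 33 without Mannitol 2, and 45 to 58 in the other fits that left out 1 library. The 5 named genes kept theirs throughout.

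**Figure D2:**
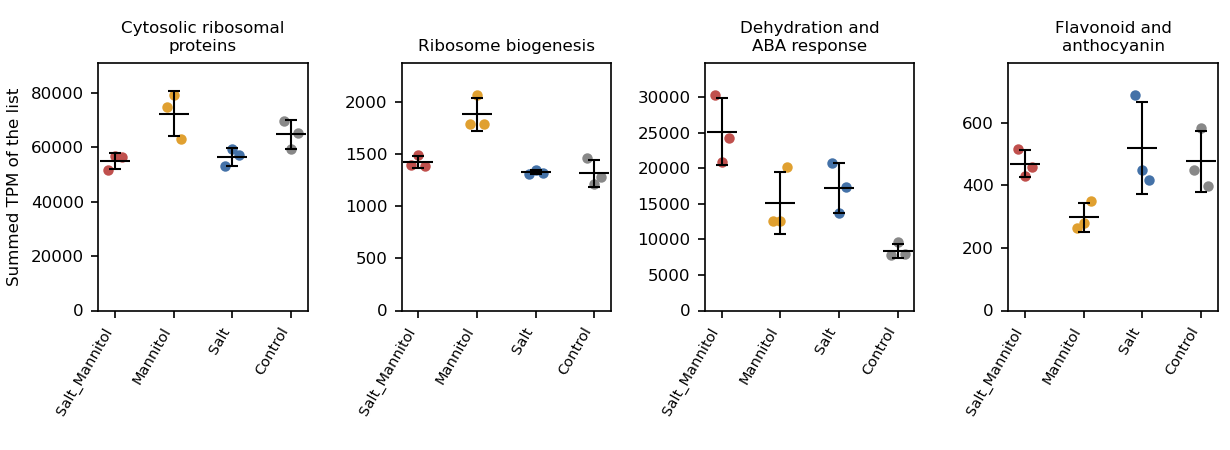
Summed TPM of 4 gene lists in each library (points; bars give the mean and SD of 3 libraries) in Salt_Mannitol, Mannitol, Salt and Control. Ribosome biogenesis reached 1791 to 2068 TPM in Mannitol and stayed at or under 1494 TPM in each library of the other 3 groups, and the Mannitol library with the high dehydration sum of 20130 TPM is library 3.

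Between Salt and Control, where 10.9% of genes tested were called (4.54% higher and 6.4% lower), 13 of 243 ribosomal proteins fell and 1 rose with a median log2 fold change of -0.15, and 3 of 82 ribosome biogenesis genes fell and 2 rose with a median of 0.05. The difference between the 2 changes was itself called for 40 of 82 ribosome biogenesis genes (48.8%), while for ribosomal proteins it was called for 23 of 243 (9.47%), nearer to the 6.6% of all genes tested. For NUC-L1 the change was -0.75 ± 0.11 on mannitol and 0.04 between Salt and Control, a difference of -0.79 (edgeR adjusted p = 0.0043). In heated plants, where 0.854% of genes tested were higher and 1.76% lower, 10 ribosomal proteins and 7 ribosome biogenesis genes fell and none rose, and both lists had a median of -0.24. Because Control plants received no recorded watering, a difference from the Salt and Control pair cannot be told apart from an effect of watering.

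**Figure D3:**
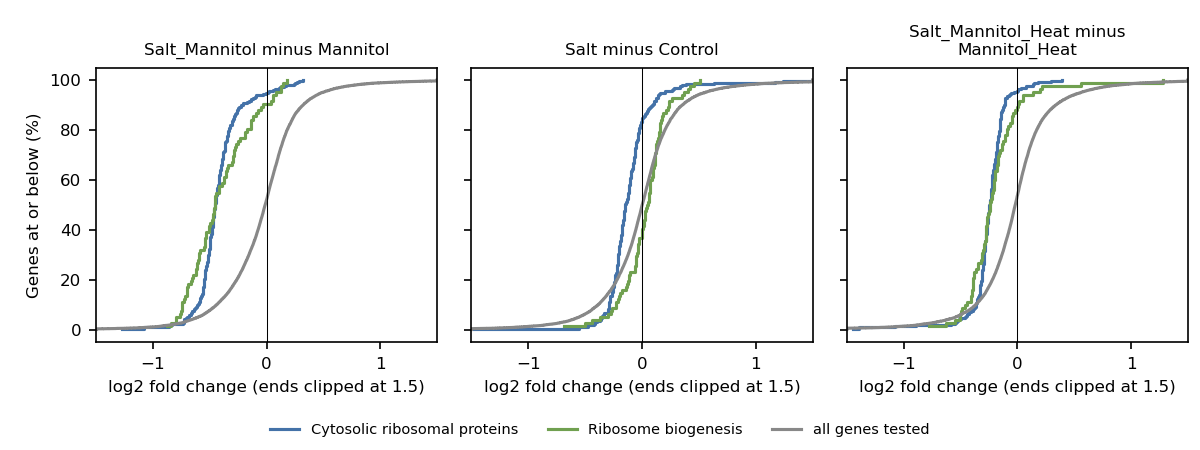
Cumulative share of genes (percent) by log2 fold change in 3 comparisons, for cytosolic ribosomal proteins, ribosome biogenesis genes and all genes tested. The 2 ribosome lists lie left of all genes in Salt_Mannitol minus Mannitol, with medians of -0.45, while in Salt minus Control their medians are -0.15 and 0.05.

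Promoters of ribosomal protein genes often carry a telo box, read here as AAACCCTA, and site II elements, read as TGGGCC or TGGGCT, both on either strand. These motifs were chosen after the values had been seen. In a window from 250 bases before to 50 after the gene start in RefSeq (TAIR10.1), which was found for 19883 of 20027 genes tested, 50.2% of the 199 fallen ribosomal protein genes held the telo box and 77.9% a site II element. Over all 243 ribosomal protein genes tested, fallen or not, the shares were 46.1% and 72.8%, close to those of the fallen members. The shares were 40.7% and 57.6% of the 59 fallen ribosome biogenesis genes and 5.50% and 25.2% of all genes tested. They were 17.9% and 37.9% of all genes called lower, which include the fallen ribosomal protein genes. The upstream 250 bases of 2 fallen genes show where these letters lie, in capitals, on the strand of the gene. The promoter of AT3G11120 (chr3:3480770-3481019, plus strand) holds a telo box and 2 site II matches, and that of AT2G20450 (chr2:8813582-8813831, plus strand) holds 2 site II matches.
AT3G11120: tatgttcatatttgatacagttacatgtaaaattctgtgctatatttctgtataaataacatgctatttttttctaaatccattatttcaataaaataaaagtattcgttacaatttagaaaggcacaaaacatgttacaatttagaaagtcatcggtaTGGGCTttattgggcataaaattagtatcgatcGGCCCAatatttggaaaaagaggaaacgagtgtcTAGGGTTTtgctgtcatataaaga
AT2G20450: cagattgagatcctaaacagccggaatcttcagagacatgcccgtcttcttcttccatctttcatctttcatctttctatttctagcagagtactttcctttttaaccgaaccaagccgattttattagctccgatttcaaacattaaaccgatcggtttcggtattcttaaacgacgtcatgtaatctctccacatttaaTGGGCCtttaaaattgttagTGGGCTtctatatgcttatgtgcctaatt

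Dehydration and ABA response genes were mostly higher in Salt_Mannitol, but most did not pass the test. Of 29 tested members, 26 had a positive log2 fold change, with a median of 0.62. Called were 5 rises (17.2%, beside 5.27% of all genes tested) and 1 fall (3.45%, beside 8.09%). The summed level of the list was 30240, 20910 and 24280 TPM in Salt_Mannitol, against 12540, 12630 and 20130 TPM in Mannitol. Mannitol 3 came within reach of the lowest Salt_Mannitol library, while the other 2 Mannitol libraries were well below it. Without Mannitol 3, 16 members rose and the median was 1.06, whereas 1 member rose without Salt_Mannitol 1, without Mannitol 1 or without Mannitol 2 (the plot of dehydration members). Between Salt and Control, 14 members rose and 1 fell, with a median of 1.00, where 4.54% of all genes tested rose and 6.4% fell.

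**Figure D4:**
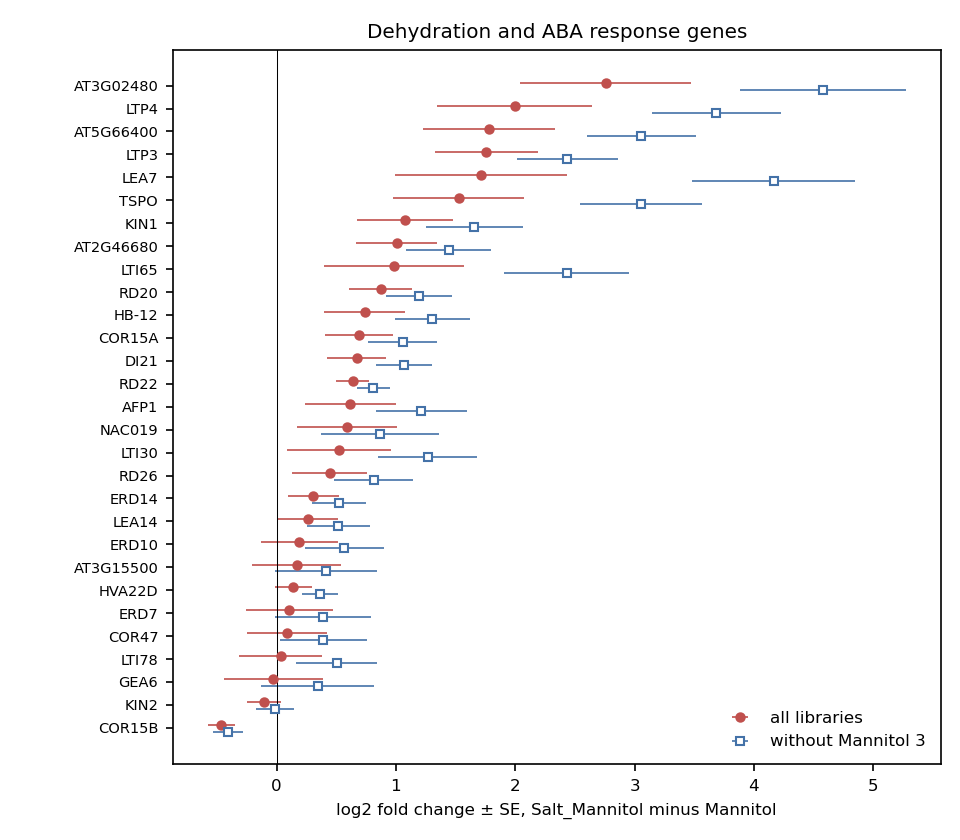
Log2 fold change (± SE) of the 29 tested dehydration and ABA response genes between Salt_Mannitol and Mannitol, with all libraries (filled circles) and without Mannitol 3 (open squares). Leaving out this library moved AT3G02480 to 4.58 from 2.76 with all libraries, and the median of the list to 1.06 from 0.62.

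RD22, a BURP-domain protein induced by dehydration, had 2177, 1862 and 1886 TPM in Salt_Mannitol, against 1090, 1133 and 1553 TPM in Mannitol. Its rise of 0.64 ± 0.14 (edgeR adjusted p = 0.0044) was the single call of the list that held whichever library was left out. AT3G02480, a LEA-family protein, had 2913, 1171 and 2010 TPM in Salt_Mannitol, against 40.4, 127 and 625 TPM in Mannitol. Its groups did not overlap, and the log2 fold change was 2.76 ± 0.72 (edgeR adjusted p = 0.018), but 4.58 without Mannitol 3, and the call was lost without Salt_Mannitol 1, Mannitol 1 or Mannitol 2 (adjusted p up to 0.091). LTP3, a lipid transfer protein, had 3828, 2332 and 2901 TPM in Salt_Mannitol, against 455, 651 and 1476 TPM in Mannitol. It rose by 1.76 ± 0.43 (edgeR adjusted p = 0.013), or 2.44 without Mannitol 3, with the call lost without Salt_Mannitol 1, Mannitol 1 or Mannitol 2 (adjusted p up to 0.072). AT5G66400, the dehydrin RAB18, had 1136, 491 and 737 TPM in Salt_Mannitol, against 89.5, 97.7 and 486 TPM in Mannitol. Its value of 1.78 ± 0.55 (edgeR adjusted p = 0.041) became 3.06 without Mannitol 3, and the call was lost without Salt_Mannitol 1, Salt_Mannitol 3, Mannitol 1 or Mannitol 2 (adjusted p up to 0.18). COR15B, a chloroplast protein of cold-acclimated leaves, went the other way, with 280, 294 and 302 TPM in Salt_Mannitol, against 380, 386 and 415 TPM in Mannitol. It fell by 0.46 ± 0.11 (edgeR adjusted p = 0.0094, and 0.058 without Salt_Mannitol 1).

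The core ABA response element, ACGTG on either strand, was in the promoter window of 38.0% of genes called higher, 21.5% of genes called lower and 27.5% of all genes tested. Of the 29 dehydration genes tested 20 held it. CCGAC, the core of the dehydration response element, was in 13.5%, 16.6% and 16.2% of the windows of genes called higher, genes called lower and all genes tested. The 250 bases before 2 of the genes above hold 3 ACGTG matches each, in capitals (counting both strands, so that the palindrome CACGTG counts 2 times). Those before LTP3, also named above, hold 0 and are not printed. AT3G02480 lies on the plus strand (chr3:511970-512219) and AT5G66400 on the minus strand (chr5:26519448-26519697).
AT3G02480: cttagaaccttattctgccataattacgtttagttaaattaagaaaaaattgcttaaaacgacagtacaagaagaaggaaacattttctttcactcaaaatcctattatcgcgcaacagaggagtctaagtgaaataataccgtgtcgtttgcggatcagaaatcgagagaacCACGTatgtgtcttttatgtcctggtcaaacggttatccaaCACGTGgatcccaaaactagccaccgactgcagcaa
AT5G66400: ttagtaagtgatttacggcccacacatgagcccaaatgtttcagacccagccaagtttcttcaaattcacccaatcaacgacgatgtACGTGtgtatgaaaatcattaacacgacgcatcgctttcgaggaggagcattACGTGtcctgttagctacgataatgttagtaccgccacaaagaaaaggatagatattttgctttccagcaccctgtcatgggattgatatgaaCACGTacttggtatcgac

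None of 9 ABA synthesis and breakdown genes was called, and NCED3, the rate-limiting dioxygenase of ABA synthesis, changed by -0.12 ± 0.26. Among 23 receptors, phosphatases, kinases and factors, the phosphatase HAB1 (0.61 ± 0.18; libraries overlapping) and the transcription factor ABF3 (0.69 ± 0.21) rose, and the receptor PYL4 (-0.90 ± 0.22) fell, which makes 13% called, close to the 13.4% of all genes tested. Without Mannitol 3 the number that rose was 10, and none rose without Salt_Mannitol 1, Mannitol 1 or Mannitol 2. None of 20 stress transcription factors was called. Proline metabolism had 2 rises among 9 genes tested, and galactinol and raffinose synthesis 1 rise and 1 fall among 9. Of all genes tested 5.27% rose and 8.09% fell. P5CS1, which makes proline, had 533, 428 and 425 TPM in Salt_Mannitol, against 265, 222 and 310 TPM in Mannitol, and rose by 0.79 ± 0.19 (edgeR adjusted p = 0.011), a call lost without Mannitol 2 or Salt_Mannitol 1 (adjusted p up to 0.071). ALDH12A1, which breaks proline down, rose by 0.40 ± 0.070 (edgeR adjusted p = 0.0011). GolS3, a galactinol synthase of the raffinose pathway, had 7.66, 7.58 and 7.97 TPM in Salt_Mannitol, against 19.7, 16.3 and 21.1 TPM in Mannitol. It fell by 1.31 ± 0.16 (edgeR adjusted p = 0.00011). SIP2, a raffinose-hydrolysing galactosidase, rose by 0.95 ± 0.22 (edgeR adjusted p = 0.0089), a call lost without Salt_Mannitol 1.

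Transporters of sodium, potassium, protons and chloride rose at a share near that of all genes. Of 32 members tested 2 rose (6.25%, beside 5.27% of all genes tested) and none fell (8.09% of all genes tested fell). The median was 0.00. CLC-C, a vacuolar anion channel, had 16.6, 15.4 and 16.1 TPM in Salt_Mannitol, against 12.2, 12.2 and 13.2 TPM in Mannitol. It rose by 0.34 ± 0.069 (edgeR adjusted p = 0.0028), and the call held whichever library was left out. NHX6, an endosomal sodium and proton antiporter, rose by 0.25 ± 0.081 (edgeR adjusted p = 0.043), a call kept only without Mannitol 3 among the fits that left out 1 library. The plasma membrane antiporter SOS1 had a log2 fold change of 0.18 ± 0.065 (adjusted p = 0.071), the vacuolar NHX1 0.10 ± 0.067 and the xylem sodium transporter HKT1 -0.61 ± 0.21 (adjusted p = 0.059), all short of the threshold.

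Salicylic acid and immune genes leaned upward in Salt_Mannitol relative to Mannitol. Of 29 members tested 26 had a positive log2 fold change, with a median of 0.37. Called were 5 rises (17.2%, beside 5.27% of all genes tested) and no fall. Between Salt and Control none rose and 1 fell, with a median of -0.05, where 4.54% and 6.4% of all genes tested did. The list summed to 1596 ± 91.3 TPM in Salt_Mannitol and 997 ± 33.9 TPM in Mannitol (SD, n = 3 each). Both sums were below the 4717 ± 559 TPM in Salt and 4002 ± 1181 TPM in Control. BGL2, the secreted glucanase PR2, had 208, 176 and 277 TPM in Salt_Mannitol, against 43.8, 53.5 and 45.7 TPM in Mannitol. The groups were far apart, with a rise of 2.19 ± 0.43 (edgeR adjusted p = 0.0038). AT4G10500, the salicylate hydroxylase DLO1, had 4.28, 4.81 and 5.76 TPM in Salt_Mannitol, against 1.59, 1.03 and 1.11 TPM in Mannitol, a rise of 1.98 ± 0.31 (edgeR adjusted p = 0.00058). SARD1, a transcription factor that activates salicylic acid synthesis, had 5.78, 5.17 and 5.50 TPM in Salt_Mannitol, against 2.10, 2.43 and 2.67 TPM in Mannitol, a rise of 1.18 ± 0.18 (edgeR adjusted p = 0.00042). These 3 calls held whichever library was left out, and they were all that rose without Salt_Mannitol 1 or without Mannitol 2. For SARD1 the difference from the Salt and Control pair (1.41) was also called (edgeR adjusted p = 0.0020). PR1, the classic salicylic acid marker, had 162, 128 and 231 TPM in Salt_Mannitol, against 34.8, 49.7 and 47.0 TPM in Mannitol. Its groups did not overlap either, but 1.96 ± 0.68 missed the threshold (edgeR adjusted p = 0.068). AIG1, a GTP-binding protein induced in immune responses, rose by 2.37 ± 0.56 (edgeR adjusted p = 0.010), a call that held whichever library was left out. It had 3.91, 6.16 and 5.76 TPM in Salt_Mannitol, against 0.898, 1.04 and 1.08 TPM in Mannitol. In the other pair AIG1 averaged 2.27 ± 0.676 TPM in Salt and 10.4 ± 9.94 TPM in Control (SD, n = 3 each). Its change there was -2.20 ± 0.51 (edgeR adjusted p = 0.010), and the difference of 4.56 was called (edgeR adjusted p = 0.0029).

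Flavonoid and anthocyanin genes also leaned upward, with 15 of 16 tested members positive and a median of 0.71. Of these members 7 were called higher (43.8%, beside 5.27% of all genes tested) and none lower. Their summed level was 516, 430 and 459 TPM in Salt_Mannitol, against 264, 278 and 348 TPM in Mannitol. It was 518 ± 147 TPM in Salt and 476 ± 96.4 TPM in Control (SD, n = 3 each). Every Mannitol library also lay below every Salt and Control library. MYB90, the anthocyanin regulator PAP2, had 3.69, 2.30 and 2.61 TPM in Salt_Mannitol, against 0.116, 0.169 and 0.774 TPM in Mannitol. It rose by 2.90 ± 0.59 (edgeR adjusted p = 0.0034), or by 4.25 without Mannitol 3, and was the single member called in every such fit. Its relative AT1G56650, which is PAP1, rose by 1.03 ± 0.30 and TT4, the chalcone synthase, by 0.76 ± 0.22. Without Salt_Mannitol 1, Mannitol 1 or Mannitol 2 the list had 1 call, and without Mannitol 3 it had 9. Between Salt and Control none rose and 1 fell, where 4.54% and 6.4% of all genes tested did. ELIP1, a chlorophyll-binding protein made under light stress, had 15.9, 10.7 and 9.73 TPM in Salt_Mannitol, against 1.53, 1.49 and 4.12 TPM in Mannitol, and rose by 2.29 ± 0.38 (edgeR adjusted p = 0.00091). Without Mannitol 3 its rise was 2.98.

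Falls were also found among genes of growth. All 7 called auxin response genes of 17 tested fell (41.2%, beside 8.09% of all genes tested), and the median was -0.36. IAA19, an auxin-induced repressor, had 9.62, 13.4 and 9.25 TPM in Salt_Mannitol, against 21.3, 19.8 and 18.7 TPM in Mannitol, and fell by 0.91 ± 0.18 (edgeR adjusted p = 0.0023). YUC2, which catalyses the last step of auxin synthesis, fell by 1.10 ± 0.25 (edgeR adjusted p = 0.0058) at levels near 1 TPM or below. These 2 calls held whichever library was left out, while the list had 2 calls without Salt_Mannitol 1 or without Mannitol 2 and 3 without Salt_Mannitol 3 or without Mannitol 1. Small auxin-up RNAs, which promote cell expansion, gave 2 of the largest falls. AT4G34790 had 1.35, 1.36 and 0.914 TPM in Salt_Mannitol, against 10.3, 8.67 and 3.51 TPM in Mannitol, a fall of 2.61 ± 0.44 (edgeR adjusted p = 0.00090), and SAUR68 fell by 1.54 ± 0.33 (edgeR adjusted p = 0.0041). GER3, a germin of the cell wall, had 23.3, 31.7 and 52.5 TPM in Salt_Mannitol, against 109, 92.8 and 76.8 TPM in Mannitol, and fell by 1.40 ± 0.24 (edgeR adjusted p = 0.0017). EPF1, a peptide that limits stomatal density, fell by 1.63 ± 0.37 (edgeR adjusted p = 0.0058, and 0.051 without Salt_Mannitol 1).

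Of 27 expansins and xyloglucan endotransglucosylases, which loosen and remodel cell walls, 4 fell (14.8%) and none rose, with a median of -0.45. Of 19 aquaporins 4 fell (21.1%) and none rose, where 8.09% of all genes tested fell. None of these 8 calls held without Salt_Mannitol 1 or without Mannitol 1, and without Mannitol 3 each list had 8. XTH9 fell by 0.93 ± 0.22 (edgeR adjusted p = 0.010), a call lost without Salt_Mannitol 1 or Mannitol 1. DELTA-TIP, the tonoplast aquaporin TIP2;1, had 60.6, 85.7 and 84.6 TPM in Salt_Mannitol, against 222, 182 and 97.8 TPM in Mannitol, and fell by 1.14 ± 0.30 (edgeR adjusted p = 0.019), with Mannitol 3 again the closest to Salt_Mannitol. Photosynthetic light reaction genes had 5 falls (10.9%, beside 8.09% of all genes tested) and 1 rise among 46, a median of -0.18, and 24 falls without Mannitol 3, but 1 without Salt_Mannitol 1, Mannitol 1 or Mannitol 2. FED A, the major leaf ferredoxin, fell by 0.62 ± 0.10 (edgeR adjusted p = 0.00064) and held in every such fit, with 2162, 2392 and 2391 TPM in Salt_Mannitol, against 3930, 3667 and 2895 TPM in Mannitol.

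Of 24 nitrate uptake and assimilation genes 8 fell (33.3%, beside 8.09% of all genes tested) and 2 rose (8.33%, beside 5.27%), with a median of 0.07. NIA1, a nitrate reductase, had 6.86, 5.22 and 6.23 TPM in Salt_Mannitol, against 10.4, 13.6 and 10.6 TPM in Mannitol, and fell by 0.93 ± 0.13 (edgeR adjusted p = 0.00029). NIR1, the nitrite reductase, fell by 0.47 ± 0.095, UPM1, which makes its siroheme cofactor, by 0.49 ± 0.072, and the nitrogen-response regulator LBD39 by 0.81 ± 0.17, and these 4 calls held whichever library was left out. The 2 that rose were the glutamine synthetase GLN1.3 (0.44 ± 0.11) and the asparagine synthetase ASN1 (0.64 ± 0.18). Without Salt_Mannitol 1 and without Mannitol 2 there were 4 falls, and the number of rises was 0 and 1 in these 2 fits.

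Several chaperones of the cytosol fell. HSC70-1, a constitutive HSP70, had 374, 405 and 367 TPM in Salt_Mannitol, against 571, 637 and 569 TPM in Mannitol, and fell by 0.64 ± 0.11 (edgeR adjusted p = 0.00068). HSP81-3, a cytosolic HSP90, fell by 0.52 ± 0.10 (edgeR adjusted p = 0.0021). In contrast CLPB3, a plastid disaggregase, rose by 0.48 ± 0.084 (edgeR adjusted p = 0.0011). Large chaperones summed to 921 ± 34.2 TPM in Salt_Mannitol, 1209 ± 92 in Mannitol, 1146 ± 34.7 in Salt and 909 ± 53.6 in Control (SD, n = 3 each). Of 20 large chaperones 8 fell and 2 rose, where 8.09% and 5.27% of all genes tested did. Between Salt and Control 7 rose and none fell, where 4.54% and 6.4% of all genes tested did. The difference between the 2 changes was called for 10 (50%, beside 6.6% of all genes tested). On mannitol 5 fell without Salt_Mannitol 1 or without Mannitol 2, 4 rose without Mannitol 3 and 1 rose without Mannitol 1. For HSC70-1 that difference was -1.03 (edgeR adjusted p = 0.00056). None of 14 small heat shock proteins was called. BIP3, an inducible chaperone of the endoplasmic reticulum, rose by 1.37 ± 0.30 (edgeR adjusted p = 0.0050), with 3.15, 3.40 and 4.04 TPM in Salt_Mannitol, against 1.37, 1.49 and 1.20 TPM in Mannitol.

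Among the most abundant called genes, MT3, a metallothionein, had 6680, 7310 and 6500 TPM in Salt_Mannitol, against 9978, 8490 and 8721 TPM in Mannitol, a fall of 0.50 ± 0.10 (edgeR adjusted p = 0.0027). LP1, the epidermal lipid transfer protein LTP1, had 5266, 4906 and 5331 TPM in Salt_Mannitol, against 3690, 3851 and 3793 TPM in Mannitol, a rise of 0.42 ± 0.065 (edgeR adjusted p = 0.00053). KCS6, which elongates wax precursors, rose by 0.53 ± 0.10 (edgeR adjusted p = 0.0018). Clock-controlled genes gave 4 falls and 1 rise among 22 (18.2% and 4.55%, beside 8.09% and 5.27% of all genes tested). PRR5 was at -0.76 ± 0.12 (edgeR adjusted p = 0.00053), and the RNA-binding proteins AT4G39260 (GRP8) at -0.51 ± 0.084 and GRP7 at -0.38 ± 0.094. All plants were harvested at midday, per the labels.

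The change with salt on mannitol differed from that between Salt and Control for 1322 genes (6.6% of 20027, edgeR adjusted p under 0.05). It was more positive on mannitol for 569 (2.84%) and more negative for 753 (3.76%). Control plants received no recorded watering, so mannitol and watering cannot be told apart in this difference. Genes chosen for a difference between 2 changes tend to have changes of opposite sign, and 1150 did. Of the 1322 genes, 579 were called on mannitol only, 486 between Salt and Control only, 95 in both (89 of them in opposite directions) and 162 in neither. Over the genes called on mannitol, most had the same sign between Salt and Control, 729 of 1055 higher genes (69.1%) and 1033 of 1620 lower genes (63.8%), where 50.3% of all genes tested were positive and 49.6% negative. Of the 1055 genes higher in Salt_Mannitol 148 were also called higher in Salt than in Control and 41 lower, and of the 1620 lower genes 197 were called lower and 48 higher. The 148 and 197 shared calls are 16.3% of the 909 genes called higher and 15.4% of the 1282 called lower in Salt. Leaving out 1 library gave 557 genes without Control 2, 651 without Salt 3, 693 without Salt 2, 731 without Mannitol 2, 738 without Salt_Mannitol 3 and 783 without Salt_Mannitol 1.

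**Figure D5:**
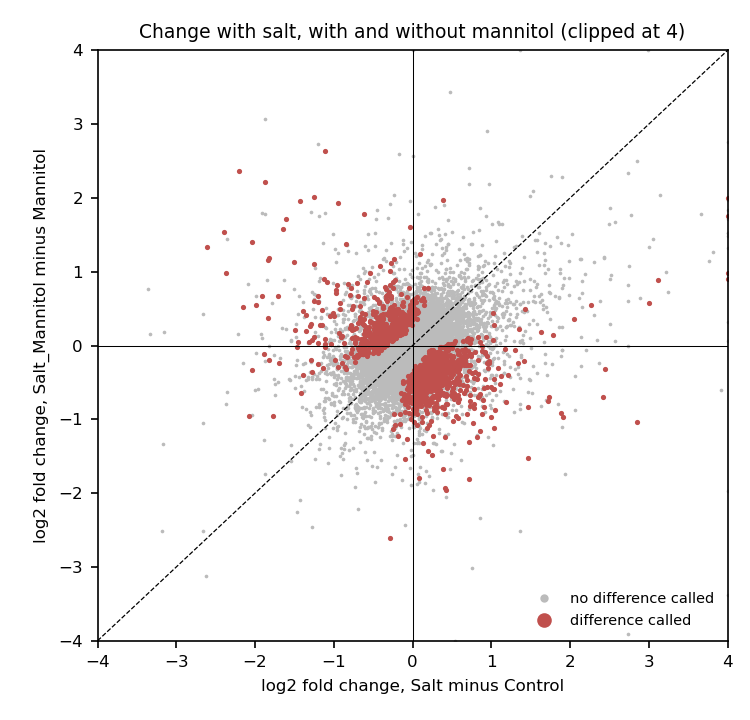
Log2 fold change of each tested gene between Salt_Mannitol and Mannitol (vertical) against that between Salt and Control (horizontal), clipped at 4, with the 1322 genes whose difference was called in red. The red points were selected for their distance from the dashed line of equal change, so their place at the upper left and lower right follows from that choice.

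HCAR, a reductase of the chlorophyll cycle, averaged 13.7 ± 0.666 TPM in Salt_Mannitol, against 7.5 ± 0.502 TPM in Mannitol (SD, n = 3 each). In the other pair its libraries had 8.85, 8.16 and 8.57 TPM in Salt, against 11, 12.5 and 14.5 TPM in Control. It rose by 0.86 ± 0.082 on mannitol and fell by 0.58 ± 0.083 between Salt and Control, with no overlap of libraries in either pair. TCTP, a growth-related protein, fell by 0.56 ± 0.079 on mannitol, with 1027, 967 and 1001 TPM in Salt_Mannitol, against 1570, 1442 and 1339 TPM in Mannitol. In the other pair it rose by 0.44 ± 0.079, with 1470, 1575 and 1538 TPM in Salt, against 1124, 1079 and 1148 TPM in Control. Jasmonate genes differed for 10 of 31 members (32.3%, beside 6.6% of all genes tested). On mannitol 1 rose and none fell (median 0.15), where 5.27% and 8.09% of all genes tested did. Between Salt and Control 13 fell and none rose (median -0.68), where 6.4% and 4.54% of all genes tested did. LOX2, the chloroplast lipoxygenase of jasmonate synthesis, changed by 0.28 ± 0.20 on mannitol (adjusted p = 0.39) and by -1.15 between Salt and Control, a difference of 1.42 (edgeR adjusted p = 0.0062). Calvin cycle genes had 1 rise and 1 fall among 19 on mannitol (5.26% each, beside 5.27% and 8.09% of all genes tested). Between Salt and Control 15 fell (6.4% of all genes tested did), and the difference was called for 5 (26.3%, beside 6.6%).

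In heated plants, 524 genes (2.62%) were called between Salt_Mannitol_Heat and Mannitol_Heat. Of the genes called at 22 °C, 899 of the 1055 higher (85.2%) and 1526 of the 1620 lower (94.2%) had the same sign in the heated pair. Over all genes tested 46.3% were positive and 53.7% negative in the heated pair. The shared calls were 47 higher, which is 4.45% of those at 22 °C and 27.5% of those in heat, and 152 lower, which is 9.38% and 43.1%. The difference between the 2 changes was called for 6 genes (0.03%; 0.015% in each direction) in edgeR and for 103 in DESeq2. PRR5 had 3.43, 3.12 and 3.27 TPM in Salt_Mannitol, against 4.31, 6.11 and 6.05 TPM in Mannitol, and 9.94, 11.1 and 10.2 TPM in Salt_Mannitol_Heat, against 7.47, 8.95 and 8.15 TPM in Mannitol_Heat. Its change was -0.76 ± 0.12 at 22 °C and 0.35 ± 0.11 in heat. ASE2, which starts purine synthesis, had 6.68, 8.26 and 8.01 TPM in Salt_Mannitol, against 13.9, 16.0 and 13.3 TPM in Mannitol. It fell by 0.92 ± 0.10 at 22 °C and had a log2 fold change of -0.02 ± 0.11 in heat.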

How the data were processed

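RNA-seq of rosettes gave 100 bp paired reads from a poly(A) library kit, per the labels' protocols. Tools were CASAVA (no version given), kallisto 0.45.1 and sleuth 0.30.0, per the submitters' processing notes. The genome build of the files is not given in the sources used here. The authors deposited estimated counts and a TPM signal for 27655 genes. The deposited estimated counts were multiples of a constant per library (0.797 to 1.25), which was divided out before rounding. Between 95.7% and 96.2% of values were then whole within 0.01. The deposited TPM signal summed to 0.920 to 1.12 M per library and serves for levels and for the limma alternative, on log2(TPM + 1).

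All 24 libraries entered one edgeR fit (4.0.16, in R 4.3.3): TMM scaling, the filterByExpr filter on low genes, and the robust quasi-likelihood test, adjusted by Benjamini-Hochberg over 20027 genes, and checked on simulated counts. Alternatives used DESeq2 1.42.0 and limma 3.58.1. Named genes were the 12 largest rises and falls (mean TPM of at least 5, groups apart), up to 4 called members per list, up to 6 per test of a difference and 6 abundant genes. Some that met the rule are not printed, and uncalled or further list members are named for their role. Members and lists were chosen with earlier results of these data known.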

Additional observations from a re-analysis of the deposited data

Results flagged for a closer look

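The 2 tests of a difference found changes that differ between pairs of groups. The change with salt differed between Salt_Mannitol minus Mannitol and Salt minus Control for 1322 genes, a difference that also holds watering, and between Salt_Mannitol minus Mannitol and Salt_Mannitol_Heat minus Mannitol_Heat for 6 genes.

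Against the Salt and Control pair, the named differences on the log2 scale were 1.44 ± 0.12 for HCAR (edgeR adjusted p = 3.0e-07), -1.0 ± 0.11 for TCTP (edgeR adjusted p = 6.7e-05), 1.10 ± 0.13 for AT2G36145, a protein of unknown function, 1.06 ± 0.12 for AT1G31550, a GDSL-type lipase, and 2.99 ± 0.39 for MES18, a methyl esterase (edgeR adjusted p = 0.00027). For AT5G12110, an elongation factor subunit, the difference was -1.22 ± 0.14, with -0.04 ± 0.10 on mannitol and 1.18 ± 0.10 between Salt and Control.

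Against the heated pair, the differences were -1.10 ± 0.16 for PRR5 (edgeR adjusted p = 0.0066), 0.63 ± 0.11 for HCAR, 0.91 ± 0.13 for TIN1, a gene induced by stress of the endoplasmic reticulum, -0.81 ± 0.12 for AT5G63120, -0.90 ± 0.15 for ASE2 and 0.59 ± 0.11 for AT3G26450. TIN1 changed by 0.58 ± 0.11 at 22 °C and by -0.34 ± 0.075 in heat.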

How the results depend on the processing

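For Salt_Mannitol minus Mannitol, RLE scaling gave 2718 calls, library totals 2606, DESeq2 2863, limma on log2(TPM + 1) 2606, counts as deposited 2532, no filter on low genes 2436 and a fit of the 2 groups only 2030. A log2 fold change of at least 1 left 205 (91 higher, 114 lower). It left 247 of the genes that differ from the Salt and Control pair and 1 of those that differ in heat, where DESeq2 called 103. Leaving out 1 library gave 885 to 3525 calls, 310 to 1461 higher and 575 to 2064 lower. For the difference from Salt minus Control these fits gave 557 to 1447 genes, and for that in heat 3 (without Mannitol_Heat 1 or Mannitol 2) to 13 (without Salt_Mannitol_Heat 1). Same-numbered libraries of the 2 groups did not deviate together (correlations -0.08, 0.28 and -0.10), so the numbers were not taken as pairs. With the replicate block 2585 genes were called, 996 higher and 1589 lower, and 2496 calls were shared. No called value of a named gene changed sign in any alternative. For the named genes, 216 values missed the threshold when a library was left out, and 84 in the other alternatives. The share of calls that were higher was 39.4%, but 46.1% with RLE scaling, 47.6% in DESeq2 and 47.1% in limma. For lists, library totals left 190 ribosomal protein calls and RLE scaling 190, both chosen after seeing the data. Depth of 16.4 to 19.5 M reads in 3 libraries per group limits the detection of small changes.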

Other observations

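Genes grouped by the deposited MapMan annotation showed further patterns, chosen after their values had been seen and therefore given as counts only. Nucleotide synthesis had 14 falls and 1 rise among 32 genes tested, beside 8.09% and 5.27% of all genes. ASE2, of purine synthesis, fell by 0.92 ± 0.10 (edgeR adjusted p = 5.9e-05), PUR2 by 0.39 ± 0.071 and CARA, which makes carbamoyl phosphate for pyrimidines, by 0.50 ± 0.083. Among 74 genes annotated under amino acid activation 19 fell and none rose, most of them aminoacyl-tRNA synthetases, but also the pseudouridine synthase SVR1, the exoribonuclease RRP41L and the replication protein RPA32B. Protein folding had 16 falls and 3 rises among 62, with 7 subunits of the cytosolic chaperonin annotated as TCP-1 among the falls.

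Genes annotated under the tricarboxylic acid cycle had 12 rises and no fall among 36 (33.3% higher, beside 5.27% of all genes tested). Not all are enzymes of the cycle itself, since the rises include the pyruvate dehydrogenase subunit E1 ALPHA. Mitochondrial NADH dehydrogenase had 2 rises and 1 fall among 38 (5.26% higher) and cytochrome c oxidase 1 rise among 21 (4.76%). Both shares of rises were near the 5.27% of all genes tested, of which 8.09% fell. The rises under the cycle annotation included the dehydrogenase genes mtLPD1 (0.54 ± 0.087, edgeR adjusted p = 0.00064), AT5G65750 (0.51 ± 0.087), ICDH (0.47 ± 0.085) and SDH1-1 (0.45 ± 0.097). Synthesis of starch and sucrose had 10 rises and 1 fall among 31 (32.3% and 3.23%, beside 5.27% and 8.09% of all genes tested). The glucose-1-phosphate adenylyltransferase subunit APL3, of starch synthesis, rose by 1.04 ± 0.23 (edgeR adjusted p = 0.0064), and the sucrose phosphate synthase SPS1F rose by 0.55 ± 0.13 (edgeR adjusted p = 0.0061). The calls of mtLPD1, AT5G65750, ICDH, SDH1-1, APL3 and SPS1F held whichever of the 6 libraries was left out. That of E1 ALPHA was lost in 5 of these 6 fits.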
